A study of Homo sapiens with 6 samples.

Results

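Small RNA host genes are long noncoding genes whose transcripts carry small nucleolar RNAs (snoRNAs) or microRNAs inside them. They were taken from the table of counts by name. Names of SNHG and a number, together with GAS5, ZFAS1 and EPB41L4A-AS1, gave 29 snoRNA hosts. Names that begin with MIR and a digit and end in HG gave 44 microRNA hosts, and MALAT1 and NEAT1 were kept apart as 2 nuclear RNAs. The set thus held 75 of the 28317 genes in the table.

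The libraries come from A549 cells, an established line from a human lung adenocarcinoma, grown in DMEM with serum. All cultures received the Cas9 lentivirus lentiCRISPR v2 and were kept in puromycin for 5 days, and RNA was taken on day 7 after infection. The UXS1 KO group carried UXS1 g1, a guide against UXS1, the synthase that decarboxylates UDP-glucuronic acid to UDP-xylose. The CTRL group carried a non-targeting guide. Each group held 3 libraries, which are called biological triplicates, but nothing in the labels states that the infections were separate. A p value here reflects only how these cultures varied. The knockout rests on 1 guide. The comparison asks which transcripts differ between the groups.

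In a snoRNA host the snoRNAs are cut from the introns after splicing, and the spliced exons leave for the cytoplasm, where many of them are translated briefly and removed by nonsense-mediated decay. Box C/D snoRNAs guide ribose methylation and box H/ACA snoRNAs guide pseudouridylation of ribosomal RNA, while their relatives, the scaRNAs, act on spliceosomal RNAs. A microRNA host is instead cleaved by DROSHA and DGCR8, which release the microRNA hairpin. Of the 68 microRNA genes inside the hosts 42 lay in introns, 24 in exons and 2 on an exon border. An intronic hairpin is not part of the spliced exons, so the level of its host is not a measure of cleavage. The small RNAs themselves were not measured by this assay. In bulk RNA, fewer expressing cells and less RNA per cell cannot be told apart.

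The names were checked against the GENCODE 29 annotation on GRCh38. Each of the 44 microRNA hosts held at least 1 microRNA gene on its own strand, 68 in all. Of the 29 snoRNA hosts 24 held 137 snoRNA gene entries, of which 84 lay in SNHG14, and 4 others held 5 scaRNA genes. Of the 137 snoRNA entries 90 lay in introns, 42 in exons and 5 on an exon border, with the exons of all transcripts of a host merged. Some entries overlap each other, as for SNORA16A in SNHG12, so the distinct snoRNA genes are fewer. GAS5 is listed there with none, although it is a textbook host of box C/D snoRNAs.

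Main mature forms from the 7 microRNA hosts that were called lower are shown with their seeds, the stretch that pairs with messenger RNAs (bases 2 to 8, in capitals). Sequences are from RefSeq (GRCh38.p14), which held all 37 microRNA genes of the 22 hosts that passed the filter on low counts, as 64 mature entries with 54 distinct seeds. The form miR-125b-5p is entered under both MIR100HG and MIR99AHG, which was not called, with the same sequence. Other hosts not called hold let-7c-5p, miR-4458 and miR-4500, which share the seed of let-7a-5p. They also hold miR-99a-5p, which shares that of miR-100-5p. MIR193BHG holds miR-193b and miR-365a, MIR100HG holds miR-100, let-7a-2 and miR-125b-1, and MIR222HG holds miR-221 and miR-222, whose main forms share a seed:
miR-193b-3p: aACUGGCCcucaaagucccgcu
miR-365a-3p: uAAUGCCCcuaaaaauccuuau
miR-1915-3p: cCCCAGGGcgacgcggcggg
miR-4435: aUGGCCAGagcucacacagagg
miR-31-5p: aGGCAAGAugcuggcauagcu
miR-503-5p: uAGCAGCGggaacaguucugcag
miR-100-5p: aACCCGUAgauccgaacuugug
let-7a-5p: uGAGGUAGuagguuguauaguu
miR-125b-5p: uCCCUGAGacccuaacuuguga
miR-221-3p: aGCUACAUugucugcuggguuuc
miR-222-3p: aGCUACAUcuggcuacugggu

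Several snoRNA hosts begin with a terminal oligopyrimidine tract, a C followed by pyrimidines that is also the mark of ribosomal protein messenger RNAs. RefSeq start windows were used for 22 of the 26 tested snoRNA hosts, and SNHG6, SNHG9, SNHG15 and SNHG25 were left out of this count. Of these 22 hosts, 6 (27.3%) began at the annotated start with a C and 4 more pyrimidines. The share was 4.55% for microRNA hosts (1 of 22) and 4.07% for all 35116 RefSeq windows. Here and for the motifs below, host shares count genes with any matching window, while the share of all windows counts windows. Among the 6 snoRNA hosts with the tract, SNHG12, SNHG19 and SNHG4 fell in UXS1 KO, ZFAS1 rose, and SNHG32 and SNHG5 did not pass the test. The tract stands in capitals in these stretches, which run from 10 bases before the start to 30 bases from it on the transcribed strand:
SNHG12, chr1:28581844-28581883, minus strand: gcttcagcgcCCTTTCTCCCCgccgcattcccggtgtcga
SNHG19, chr16:2155329-2155368, minus strand: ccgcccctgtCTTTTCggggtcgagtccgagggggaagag
SNHG4, chr5:139274091-139274130, plus strand: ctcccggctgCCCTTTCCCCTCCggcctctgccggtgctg
ZFAS1, chr20:49278632-49278671, plus strand: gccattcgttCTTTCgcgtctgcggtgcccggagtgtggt
SNHG32, chr6:31834906-31834945, plus strand: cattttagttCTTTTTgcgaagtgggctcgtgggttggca
SNHG5, chr6:85678704-85678743, minus strand: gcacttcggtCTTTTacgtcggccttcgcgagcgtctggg
A match is a description of these letters and does not show that the tract is used. Over the full windows, 250 bases before to 50 after the start and both strands, the E-box CACGTG was found in SNHG7 and SNHG30 of 22 snoRNA hosts, in 0 of 22 microRNA hosts and in 7.26% of all RefSeq windows. The motif TGATGNAA of the amino acid response was found in 0 of 22 snoRNA hosts, in MIR99AHG among 22 microRNA hosts and in 3.62% of all windows.

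Library totals ran from 21121489 to 22160405 counts, and no library stood apart. The targeted transcript UXS1 (ENSG00000115652.14) had 740, 735 and 764 counts in UXS1 KO and 1346, 1416 and 1372 in CTRL. Each knockout library was thus lower, at 54.1% of CTRL in counts scaled to library size (CPM) (log2 fold change -0.89, SE 0.0475, edgeR adjusted p = 2.2e-14). Of 5 epithelial markers, CDH1, KRT19 and EPCAM were higher in UXS1 KO, and the summed CPM of the list was 11900 in UXS1 KO and 10900 to 12000 in CTRL. Of 4 markers typical of A549 cells 2 were higher in UXS1 KO and 0 lower. Leukocyte markers summed to 2.95 to 3.21 CPM against 2.09 to 2.29, from ITGAM alone with CD3E at 0. The 1 tested leukocyte marker was called higher (log2 fold change 0.49). Fibroblast markers summed to 14.3 to 17.3 against 14.4 to 14.7 CPM with COL1A2 at 0, and 1 of 2 tested was called higher (0.99). Endothelial markers summed to 0.99 to 1.43 against 0.819 to 1.71 CPM, and the 1 tested was not called. The part of these markers in any result was not tested.

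Length-corrected levels set both classes of host apart before any comparison of groups. Over all 6 libraries the tested snoRNA hosts had a median of 14 TPM (the unit that corrects for length and depth), from 1.56 for SNHG26 to 164 for SNHG19, and the tested microRNA hosts a median of 1.69 TPM, from 0.111 for MIR99AHG to 36.5 for MIR1915HG. The 5 most abundant snoRNA hosts were SNHG19, SNHG29 (130 TPM), SNHG6 (88.7 TPM), GAS5 (39.3 TPM) and SNHG1 (33.2 TPM). The 5 most abundant microRNA hosts were MIR1915HG, MIR31HG (22.2 TPM), MIR22HG (16.2 TPM), MIR503HG (5.41 TPM) and MIR193BHG (4.60 TPM). MALAT1 stood above all of them at 248 TPM and NEAT1 was at 43.4 TPM.

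**Figure D1:**
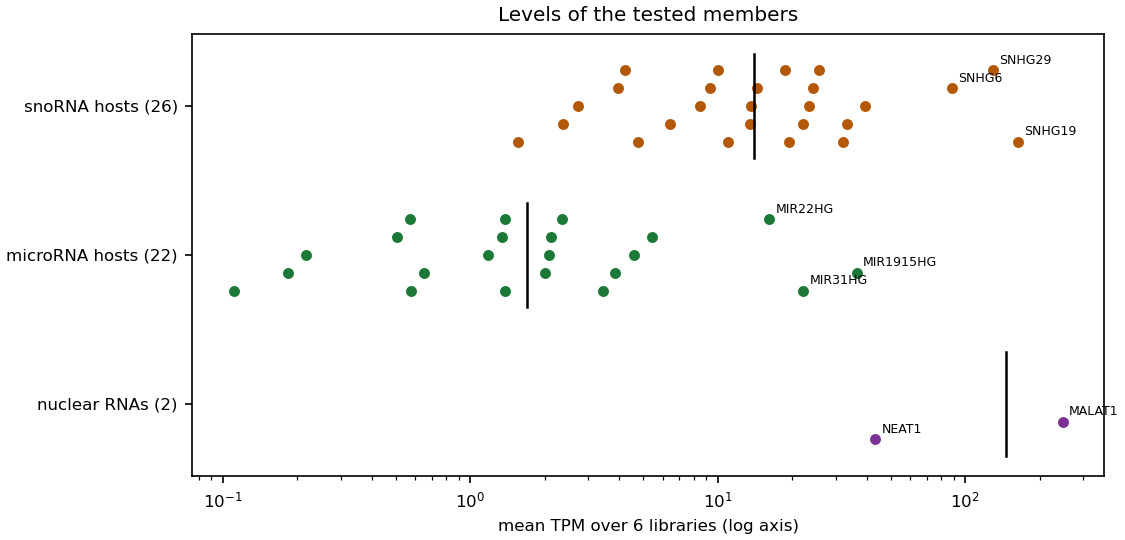
Mean TPM over the 6 libraries on a log axis for each tested member, by class, with the class median as a vertical line. The snoRNA hosts center on 14 TPM and the microRNA hosts on 1.69 TPM, and the most abundant members of each class are named.

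The filter removed more microRNA hosts than snoRNA hosts. Of 44 microRNA hosts 22 were not tested, of which 7 had no count and 20 had at most 10 counts over the 6 libraries together. The highest of them was MIR181A2HG, host of a miR-181 pair, with 3, 2 and 2 counts in UXS1 KO and 9, 10 and 10 in CTRL. SNHG18, SNHG22 and SNHG31 were the 3 snoRNA hosts not tested, with 3 to 19 counts in all. Among tested members, MIR17HG reached 10 counts in every library in CTRL only and SNHG25 in UXS1 KO only.

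Of the 26 tested snoRNA hosts 5 rose and 10 fell in UXS1 KO at an edgeR adjusted p under 0.05, and 11 were not called. The called share was 57.7%, beside 48.2% of all 15757 genes tested (24.5% higher and 23.7% lower), so that it lay near the background of a comparison in which many genes moved. Most changes were small: 14 of the 15 called snoRNA hosts moved less than 1.5-fold, and SNHG26 alone moved more. The median log2 fold change was -0.12, within a range of -0.87 to 0.41, against a median near 0 for all tested genes. Among the 1740 tested genes annotated as long noncoding RNA, 26.2% were called (16.5% higher and 9.71% lower). Per library the summed TPM of the snoRNA hosts was 664, 703 and 722 in UXS1 KO and 758, 773 and 747 in CTRL, with no overlap, but their summed CPM did overlap (844 to 862 against 860 to 895).

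**Figure D2:**
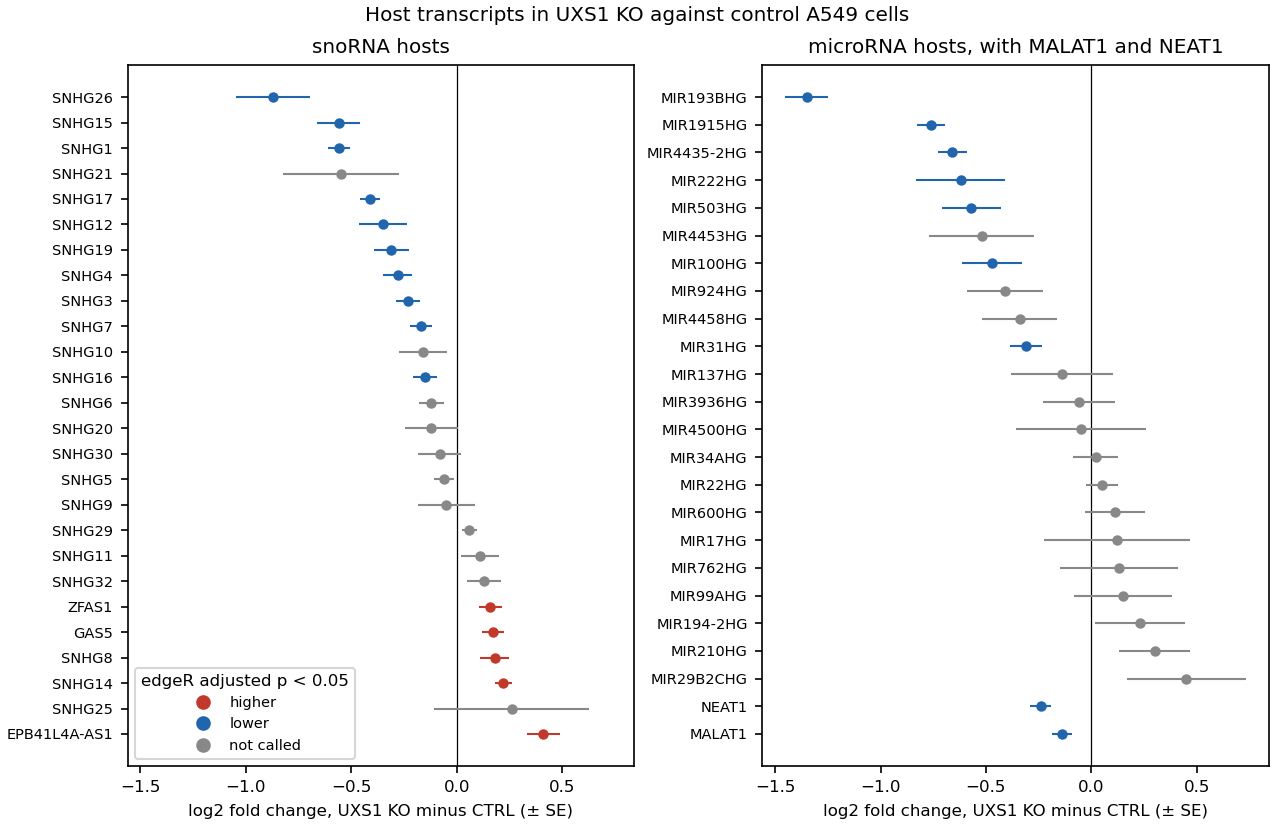
Log2 fold change (UXS1 KO minus CTRL) with its standard error for each tested snoRNA host on the left and for each tested microRNA host, MALAT1 and NEAT1 on the right, colored by the edgeR call. The snoRNA hosts spread from -0.87 to 0.41 with calls on both sides of 0, and all called microRNA hosts lie below 0.

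SNHG1 had the smallest adjusted p among the snoRNA hosts. It carries 7 box C/D snoRNA genes on chromosome 11 (62851988 to 62855914, minus strand). Its level was 29.2, 30.6 and 31.8 CPM in UXS1 KO and 43.8, 46.8 and 44.4 CPM in CTRL. Every knockout library lay below every control library, at 67.9% of CTRL (30.6 ± 1.28 against 45.0 ± 1.57 CPM, SD, n = 3 each). SNHG1 thus fell by 0.56 on the log2 scale (SE 0.0526, edgeR adjusted p = 1.5e-09).

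SNHG1 shares its start region with SLC3A2, the heavy chain of the CD98 amino acid transporters, which is transcribed away from it. The annotated starts lie 188 bases apart in GENCODE 29 and 217 bases apart when the RefSeq start of SNHG1 is used. SLC3A2 had 544, 528 and 548 CPM in UXS1 KO and 669, 700 and 683 CPM in CTRL. It also fell without overlap between groups (log2 fold change -0.34, SE 0.0344, edgeR adjusted p = 5.3e-09). The region between the genes is shown because both transcripts fell, read along the SNHG1 strand, with capitals for the first 10 bases of SNHG1 on the right and for the bases opposite the first 10 of SLC3A2 on the left:
SNHG1 and SLC3A2, chr11:62855836-62856135, minus strand: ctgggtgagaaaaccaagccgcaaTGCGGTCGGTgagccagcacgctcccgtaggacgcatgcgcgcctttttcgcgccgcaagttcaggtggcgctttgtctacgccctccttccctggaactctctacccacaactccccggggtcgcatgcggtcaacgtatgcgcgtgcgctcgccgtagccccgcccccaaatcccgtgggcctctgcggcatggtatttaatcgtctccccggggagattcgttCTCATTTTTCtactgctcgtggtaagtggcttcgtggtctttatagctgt

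Other snoRNA hosts with per-library values that fell were H/ACA and C/D hosts alike. SNHG26, host of SNORD93, had 1.84, 1.6 and 2.19 CPM in UXS1 KO and 3.64, 2.9 and 3.81 CPM in CTRL, the lowest share of CTRL in its class at 54.4% (log2 fold change -0.87, SE 0.176, edgeR adjusted p = 1.9e-04). Its groups did not overlap, but its level per length, 1.56 TPM, was the lowest among the tested snoRNA hosts. SNHG17, host of SNORA71 copies, had 38.8, 39.5 and 39.4 CPM against 51.2, 54.1 and 51.1 CPM (-0.41, SE 0.0476, edgeR adjusted p = 6.3e-08). Its knockout libraries lay close together, well below the lowest control. SNHG15, host of 1 H/ACA snoRNA, had 7.64, 8.96 and 10.9 CPM in UXS1 KO and 13.1, 12.9 and 14.6 CPM in CTRL (-0.56, SE 0.101, edgeR adjusted p = 4.7e-05). Its spread among knockout libraries was wider than for SNHG1, and the groups again did not overlap.

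SNHG3 holds SNORA73B in an intron and SNORA73A in an annotated exon, snoRNAs used in cleavage of the ribosomal RNA precursor. SNHG3 had 24.1, 26.2 and 25.4 CPM in UXS1 KO and 29, 30 and 29.6 CPM in CTRL (log2 fold change -0.23, SE 0.0571, edgeR adjusted p = 0.0018). It shares 5.90% of its exonic length with RCC1 on the same strand, and RCC1 also fell (-0.27, edgeR adjusted p = 8.1e-05), so reads of the shared part cannot be told apart. SNHG12, which lies 67.6 kb from SNHG3 on chromosome 1 and holds both box types, fell as well (-0.35, edgeR adjusted p = 0.0133), but not with DESeq2 (adjusted p = 0.0565) or without CTRL replicate 3 (edgeR adjusted p = 0.0584). SNHG4, an H/ACA host on chromosome 5, had 17.8, 16.2 and 15.9 CPM in UXS1 KO and 20.8, 20.1 and 19.8 CPM in CTRL (-0.28, SE 0.0685, edgeR adjusted p = 0.00117). In both SNHG3 and SNHG4 every knockout library was below every control library.

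SNHG19, the most abundant host per length, is a short C/D host with 342 bases of exon. It had 12.5, 14.9 and 15.9 CPM in UXS1 KO and 17.5, 19.1 and 16.9 CPM in CTRL, a narrow gap without overlap (log2 fold change -0.31, SE 0.0823, edgeR adjusted p = 0.00297). In TPM this was a mean of 147 against 182, which is large beside the class sums given above. SNHG7, an H/ACA host, fell by 0.17 (edgeR adjusted p = 0.00712). Of its exonic length 25.2% lies opposite DIPK1B, which rose (0.25, edgeR adjusted p = 0.0053). SNHG16 was called lower (-0.15, edgeR adjusted p = 0.0241), but its groups overlapped and the call was lost in 9 of 17 alternative settings. Of the exonic length of SNHG16 30.6% lies opposite AC015802.6, which was not tested. The strand setting of the counting is not given, so reads of these shared parts cannot be told apart.

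The 5 snoRNA hosts that rose were SNHG14, EPB41L4A-AS1, GAS5, ZFAS1 and SNHG8. EPB41L4A-AS1, host of SNORA13, had 13.9, 14 and 14.2 CPM in UXS1 KO and 10.6, 10.2 and 11.0 CPM in CTRL. The groups were well apart, at 133% of CTRL (log2 fold change 0.41, SE 0.0789, edgeR adjusted p = 1.2e-04). Of its exonic length 49.6% overlaps EPB41L4A on the opposite strand, and the strand setting of the counting is not given, so reads of the pair cannot be told apart there. EPB41L4A itself was not called (0.10, edgeR adjusted p = 0.398).

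SNHG14 is the long imprinted transcript of the Prader-Willi region on chromosome 15, which runs past SNRPN and over the SNORD116 and SNORD115 clusters towards UBE3A. It had 88.8, 90.3 and 89.9 CPM in UXS1 KO and 78.7, 74.4 and 77.2 CPM in CTRL, with no overlap (log2 fold change 0.22, SE 0.0402, edgeR adjusted p = 4.5e-05). On the TPM scale, with limma, the call was lost (adjusted p from 0.257 to 0.352). SNRPN, which shares exons with it on the same strand, rose (0.49, edgeR adjusted p = 8.4e-06). UBE3A, which in the annotation overlaps 0.5% of its exonic length on the opposite strand, fell (-0.23, edgeR adjusted p = 8.6e-05). Whether SNHG14 reaches UBE3A in these cells was not tested.

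GAS5, first known as a transcript that accumulates in growth-arrested cells, had 54.6, 63.0 and 56.1 CPM in UXS1 KO and 50.4, 53.5 and 49.9 CPM in CTRL. The lowest knockout library lay just above the highest control library (57.9 ± 4.46 against 51.3 ± 1.95 CPM, SD, n = 3 each; log2 fold change 0.17, SE 0.0518, edgeR adjusted p = 0.00664). Without UXS1_KO replicate 2 the difference was 0.11 and not called (edgeR adjusted p = 0.106). ZFAS1, host of the SNORD12 family, had 35.7, 34.4 and 33.0 CPM in UXS1 KO and 29.2, 32.4 and 30.4 CPM in CTRL (0.16, SE 0.0561, edgeR adjusted p = 0.0188). Its call was lost with DESeq2 (adjusted p = 0.0652) and without CTRL replicate 1 (edgeR adjusted p = 0.0861) or UXS1_KO replicate 1 (edgeR adjusted p = 0.0978). SNHG8 was called higher by a similar amount (0.18, edgeR adjusted p = 0.0303) and lost the call in 9 of 17 settings.

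ZFAS1 also has a divergent neighbour, ZNFX1, an antiviral RNA sensor whose start lies 248 bases away and whose exons it overlaps in part. ZNFX1 rose from 97.4 ± 4.63 to 114 ± 2.17 CPM (SD, n = 3 each; log2 fold change 0.22, edgeR adjusted p = 5.5e-05). Of the other divergent neighbours, TRAF7, 340 bases from SNHG19, was not called (0.09, edgeR adjusted p = 0.0679), and neither was ZBTB37, 800 bases from GAS5 (-0.10, edgeR adjusted p = 0.526). RPS2, a ribosomal protein gene 99 bases from the uncalled SNHG9, was lower (-0.11, edgeR adjusted p = 0.0178). BARD1, the partner of BRCA1, starts 518 bases from the untested SNHG31 and was lower too (-0.57, edgeR adjusted p = 1.7e-06). ACAA2 beside SNHG22 (0.04), FBXW7 beside MIR4453HG (0.08) and SLC22A5 beside MIR3936HG (-0.01) were not called.

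SNHG29 and SNHG6, both C/D hosts among the most abundant, were not called. SNHG29 had 272, 277 and 272 CPM in UXS1 KO and 258, 269 and 257 CPM in CTRL (log2 fold change 0.06, edgeR adjusted p = 0.138), and SNHG6 had 29.2, 31.9 and 30.2 CPM against 32.2, 35.8 and 31.1 CPM (-0.12, edgeR adjusted p = 0.107). The groups lay apart for SNHG29 and overlapped for SNHG6, and the differences were small beside those of SNHG1. SNHG29 passed the threshold with upper-quartile scaling (edgeR adjusted p = 0.0363) and among genes averaging 5 CPM or more (0.0470), and SNHG6 without CTRL replicate 3 (0.0414). The other uncalled snoRNA hosts had log2 fold changes of -0.55 (SNHG21), -0.16 (SNHG10), -0.12 (SNHG20), -0.08 (SNHG30), -0.06 (SNHG5), -0.05 (SNHG9), 0.11 (SNHG11), 0.13 (SNHG32) and 0.26 (SNHG25). SNHG21, of low level and with 72.9% of its exonic length in another gene of the same strand, was called only without UXS1_KO replicate 2 (-0.99, edgeR adjusted p = 0.00892).

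By the kind of small RNA inside, calls stood on both sides. Of 11 tested box C/D hosts 2 rose, 4 fell and 5 were not called. Of 9 tested H/ACA hosts 2 rose, 5 fell and 2 were not called. The 3 tested scaRNA hosts, SNHG10, SNHG20 and SNHG21, were not called, and of the 2 hosts with both box types SNHG12 fell and SNHG25 did not pass. These counts leave out GAS5, which rose and is a known box C/D host but is listed without a snoRNA in the annotation used.

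**Figure D3:**
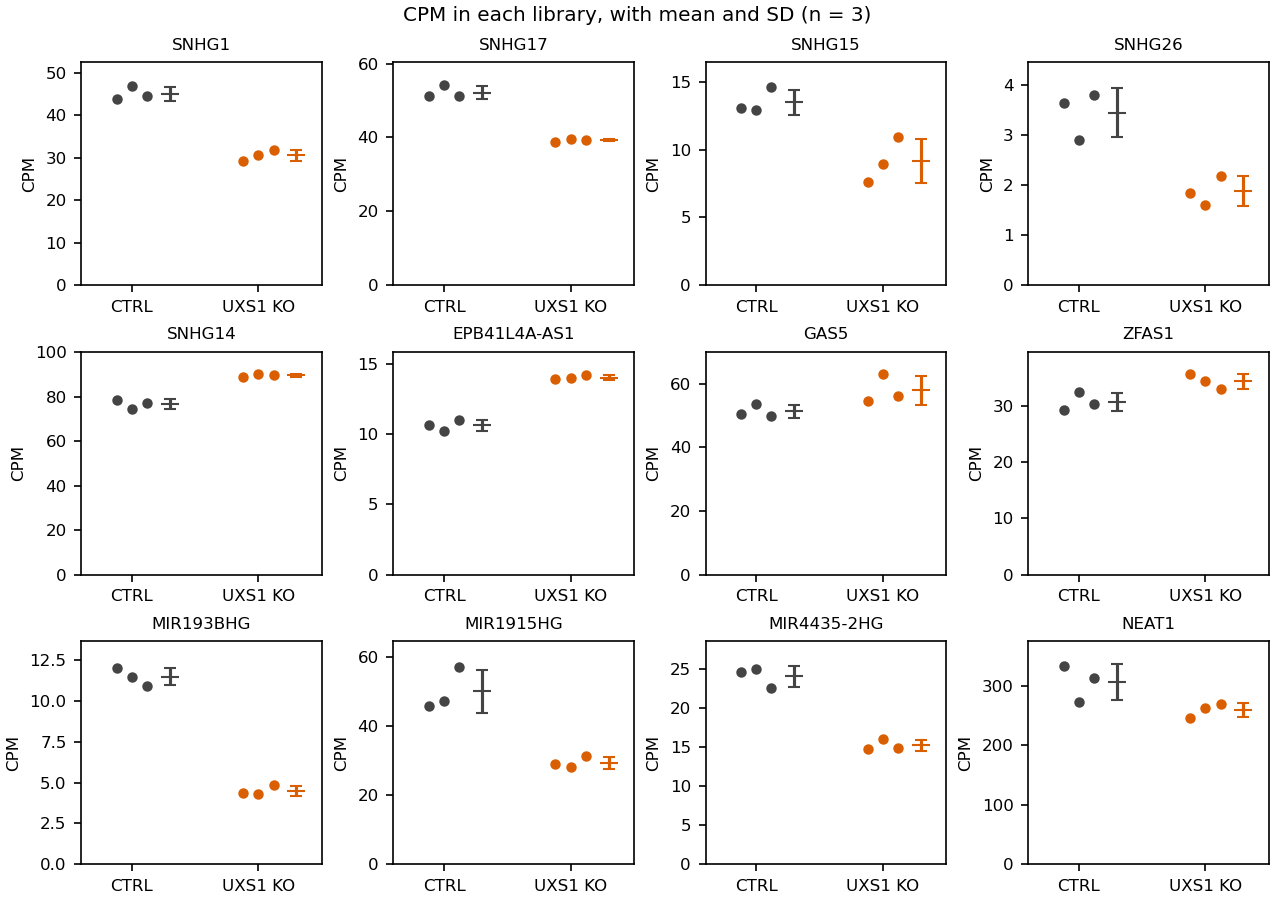
CPM in each library for 12 members, with the group mean and SD beside the points (n = 3 per group, vertical axes from 0). The 3 knockout libraries of MIR193BHG sit between 4.29 and 4.83 CPM below controls of 10.9 to 12 CPM, and those of NEAT1 sit just below its controls.

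Of the 22 tested microRNA hosts 7 fell in UXS1 KO, 0 rose and 15 were not called. The count of 0 is that of edgeR, which also had 0 at an unadjusted p under 0.05, and DESeq2 and limma-voom gave 0 as well. The called share was 31.8% beside 48.2% of all tested genes, and the median log2 fold change was -0.10, in a range of -1.35 to 0.45. That median was unstable, running from -0.32 without UXS1_KO replicate 2 to 0.05 without UXS1_KO replicate 1. It was -0.47 over the hosts averaging 5 CPM or more and -0.01 with no filter. In 11 of the 22 microRNA hosts and 16 of the 26 snoRNA hosts the CPM of the groups did not overlap, beside 54.5% of all tested genes. Summed TPM was 92.1, 95 and 99.9 in UXS1 KO and 124, 121 and 137 in CTRL, with every knockout library below every control library. MIR1915HG alone had a mean of 27.0 TPM in UXS1 KO and 46.0 TPM in CTRL, which is large beside these sums. The sums therefore do not stand for the class as a whole.

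Depth bears on the comparison of both classes. Of 8 microRNA hosts with a mean of at least 100 counts per library 6 fell, 0 rose and 2 were not called (75.0% called), while of 22 such snoRNA hosts 5 rose, 9 fell and 8 were not called (63.6%). The share over all genes of that depth was 56.1%. Below 100 counts, 1 of 14 tested microRNA hosts and 1 of 4 tested snoRNA hosts was called, against 28.2% of all tested genes there. Most tested microRNA hosts, 14 of 22, were in the group below 100 counts, where their called share was 7.14%. The difference between classes was not tested.

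MIR193BHG, on chromosome 16 (14301389 to 14331067, plus strand), moved most of the tested members. It had 4.34, 4.29 and 4.83 CPM in UXS1 KO and 12, 11.5 and 10.9 CPM in CTRL. The knockout libraries held 39.1% of CTRL (4.49 ± 0.299 against 11.5 ± 0.530 CPM, SD, n = 3 each), and it was the only tested member to change 2-fold or more (log2 fold change -1.35, SE 0.102, edgeR adjusted p = 2.1e-11). Its microRNAs, miR-193b and miR-365a, are shown above.

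MIR1915HG is the most abundant microRNA host here and lies on chromosome 10 (21492658 to 21497262, minus strand). Its level was 28.9, 28.0 and 31.3 CPM in UXS1 KO and 45.8, 47.3 and 57.2 CPM in CTRL, or 58.7% of CTRL (log2 fold change -0.76, SE 0.0675, edgeR adjusted p = 4.3e-10). CTRL replicate 3 was the highest, and the knockout libraries lay below all controls. MIR4435-2HG on chromosome 2 had 14.7, 16 and 14.9 CPM in UXS1 KO and 24.6, 25.0 and 22.5 CPM in CTRL, or 63.2% of CTRL (-0.66, SE 0.0686, edgeR adjusted p = 8.4e-09). This gene has a near-identical copy on the same chromosome, CYTOR, and reads of the copies may be split between them. CYTOR, named after its values were seen, also fell, from 23.3 ± 1.27 to 16.4 ± 0.586 CPM (-0.50, edgeR adjusted p = 6.3e-07). BCL2L11, the pro-apoptotic BIM gene that overlaps MIR4435-2HG over 5.6% of its exonic length on the opposite strand, rose (0.22, edgeR adjusted p = 0.00513).

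The other microRNA hosts that fell had smaller changes or lower counts. MIR31HG on chromosome 9 had 15.5, 16 and 16.5 CPM in UXS1 KO and 19.1, 18.3 and 22 CPM in CTRL (log2 fold change -0.31, SE 0.0743, edgeR adjusted p = 0.00128). Its groups did not overlap, and 40.7% of its exonic length lies opposite a pseudogene, IFNWP19. MIR503HG on the X chromosome had 3.96, 4.34 and 3.00 CPM in UXS1 KO and 5.05, 5.52 and 6.15 CPM in CTRL (-0.57, SE 0.139, edgeR adjusted p = 0.00142). MIR100HG, a cluster host on chromosome 11, had 4.15, 3.82 and 3.76 CPM against 5.5, 4.28 and 6.53 CPM (-0.47, SE 0.143, edgeR adjusted p = 0.00772). CTRL replicate 2 came close to the knockout libraries, and without CTRL replicate 3 the call was lost (-0.33, edgeR adjusted p = 0.0802).

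MIR222HG, whose microRNAs repress the cell cycle inhibitor CDKN1B, had 1.32, 1.08 and 1.52 CPM in UXS1 KO and 2.37, 1.75 and 1.95 CPM in CTRL. The groups did not overlap (log2 fold change -0.62, SE 0.212, edgeR adjusted p = 0.0172), but the call was lost in 6 settings, among them DESeq2 (adjusted p = 0.0712) and the fits without CTRL replicate 1 (edgeR adjusted p = 0.0985) or UXS1_KO replicate 2 (0.0898). MIR924HG had 1.98, 1.70 and 1.97 CPM against 2.82, 2.44 and 2.24 CPM and did not pass (-0.41, edgeR adjusted p = 0.0637), although its groups did not overlap.

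MIR22HG and MIR34AHG, with levels in CPM between those of MIR193BHG and MIR1915HG in UXS1 KO, were not called. MIR22HG, whose miR-22 is a broadly expressed microRNA, had 14.3, 14.2 and 13.9 CPM in UXS1 KO and 12.6, 14.1 and 14.1 CPM in CTRL (log2 fold change 0.05, SE 0.0770, edgeR adjusted p = 0.590). Its divergent neighbour WDR81, 651 bases away, was slightly lower (-0.11, edgeR adjusted p = 0.0267). MIR34AHG, host of the p53-induced miR-34a, had 7.97, 9.05 and 8.94 CPM in UXS1 KO and 9.69, 7.13 and 8.86 CPM in CTRL, with overlapping groups (0.02, SE 0.107, edgeR adjusted p = 0.917). CDKN1A and MDM2 are other targets of p53 and were picked after their values were seen, so they do not stand for p53 targets as a group, and 24.5% of all tested genes rose. CDKN1A went from 263 ± 11.1 to 505 ± 28.8 CPM (0.94, edgeR adjusted p = 3.7e-16) and MDM2 from 70.3 ± 3.40 to 115 ± 2.92 CPM (0.71, edgeR adjusted p = 2.0e-13). LNCTAM34A, which lies opposite MIR34AHG over 5.00% of its exonic length and was also chosen after its value was seen, was higher as well (1.19 to 2.21 CPM, log2 fold change 0.89, edgeR adjusted p = 9.1e-04).

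The remaining uncalled microRNA hosts had log2 fold changes of -0.52 (MIR4453HG), -0.34 (MIR4458HG), -0.14 (MIR137HG), -0.06 (MIR3936HG), -0.05 (MIR4500HG), 0.11 (MIR600HG), 0.12 (MIR17HG), 0.13 (MIR762HG), 0.15 (MIR99AHG), 0.23 (MIR194-2HG), 0.30 (MIR210HG) and 0.45 (MIR29B2CHG). MIR210HG holds miR-210, the microRNA of the hypoxia response, and was not called (edgeR adjusted p = 0.142). MIR17HG, the host of the miR-17-92 cluster and a known MYC target, was not called either (edgeR adjusted p = 0.805). MIR4453HG passed only without CTRL replicate 1 (-0.67, edgeR adjusted p = 0.0468).

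NEAT1 and MALAT1 are abundant nuclear RNAs that lie 52.1 kb apart on chromosome 11. NEAT1 is the scaffold of paraspeckles, and MALAT1 is kept in nuclear speckles. NEAT1 had 247, 263 and 270 CPM in UXS1 KO and 333, 274 and 313 CPM in CTRL. The groups were separated by a narrow gap (260 ± 11.8 against 307 ± 29.9 CPM, SD, n = 3 each; 84.6% of CTRL), and NEAT1 fell by 0.24 on the log2 scale (SE 0.0492, edgeR adjusted p = 2.0e-04). An exact two-sided permutation test of its CPM gave p = 0.1, the smallest that 3 against 3 libraries allow.

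MALAT1 had 564, 600 and 628 CPM in UXS1 KO and 721, 602 and 648 CPM in CTRL, and the groups overlapped. It fell by 0.14 on the log2 scale (SE 0.0479, edgeR adjusted p = 0.0199), while the exact permutation test gave p = 0.2. CTRL replicate 1 was the highest library for both RNAs. Without it, MALAT1 was at -0.07 and not called (edgeR adjusted p = 0.226), and without UXS1_KO replicate 1 it was at -0.10 and not called either (edgeR adjusted p = 0.154). Its call was lost in 8 of 17 settings. NEAT1 stayed within -0.32 to -0.18 as any 1 library was left out.

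Of the small RNA genes inside the hosts, 13 were matched in the count table, all intronic, and the others were not analysed here. SNORD104, inside SNHG25, alone passed the filter. It had 13, 12 and 8 counts in UXS1 KO and 22, 13 and 21 in CTRL and was not called (log2 fold change -0.76, edgeR adjusted p = 0.0582). No statement on snoRNA or microRNA levels follows from the host values.

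Transcripts of proteins that process the snoRNAs were more often lower than higher. Of 21 genes for snoRNP core proteins and their assembly 15 fell, 0 rose and 6 were not called with edgeR (median log2 fold change -0.21), beside 48.2% called and 23.7% lower over all tested genes and 56.1% called among genes with at least 100 counts. At an unadjusted p under 0.05 edgeR had 2 higher, DESeq2 and limma-voom called 0, and upper-quartile scaling or library size alone called 2 higher. TCOF1, the treacle protein of ribosomal DNA transcription, fell from 151 ± 6.73 to 110 ± 1.48 CPM (-0.46, edgeR adjusted p = 2.5e-10). NOP56, a core protein of box C/D particles, fell from 192 ± 4.63 to 136 ± 9.42 CPM (-0.49, edgeR adjusted p = 2.8e-10). DKC1, the pseudouridine synthase of H/ACA particles, fell by 0.47 and RUVBL2, an assembly ATPase, by 0.34 on the log2 scale. Of the 26 tested snoRNA host transcripts 5 rose and 10 fell, as given above.

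Nonsense-mediated decay genes, whose products degrade many spliced snoRNA host transcripts, had 9 of 18 members lower, 1 higher and 8 not called (median -0.15). This share of calls lay near the 56.1% of all genes with at least 100 counts. SMG1, the kinase of UPF1, was at -0.43, SMG9 at -0.30, UPF2 at -0.33 and DHX34 at -0.28 on the log2 fold change scale, and all 4 were called lower. The exon junction protein RBM8A alone rose (0.19). The microRNA biogenesis and silencing list had the same counts, 9 lower, 1 higher and 8 not called of 18 (median -0.12), again near that 56.1%. Here DGCR8, which with DROSHA cleaves the microRNA hosts, fell from 37.1 ± 2.43 to 27.5 ± 0.693 CPM (-0.43, edgeR adjusted p = 5.9e-07), and DROSHA from 81.9 ± 1.05 to 69.0 ± 3.55 CPM (-0.25, edgeR adjusted p = 3.3e-05). The slicer AGO2 (-0.33) and the export factor XPO5 (-0.28) fell as well, and the editing enzyme ADAR rose (0.14).

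Of 15 genes for paraspeckle and nuclear speckle proteins 13 fell, 0 rose and 2 were not called with edgeR (median -0.23), with 0 higher at an unadjusted p under 0.05, by DESeq2 or by limma-voom. Over all tested genes 23.7% were lower, and 56.1% of those with at least 100 counts were called in either direction. The splicing factor SRSF2 fell from 178 ± 3.01 to 125 ± 2.23 CPM (-0.51, edgeR adjusted p = 7.6e-12), and SRSF1, RBM14 and SFPQ by 0.45, 0.37 and 0.27 on the log2 scale. SFPQ and RBM14 are needed to build paraspeckles around NEAT1.

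Protein-coding genes that also carry small RNAs moved in both directions. Of 30 protein-coding snoRNA hosts 13 fell, 4 rose and 13 were not called (median -0.05), and of 25 protein-coding microRNA hosts 12 fell, 5 rose and 8 were not called (median -0.11). The share called over all genes with at least 100 counts was 56.1%, near that of the protein-coding snoRNA hosts. The nucleolar protein NCL fell from 618 ± 19.8 to 447 ± 13.9 CPM (-0.47, edgeR adjusted p = 3.3e-11), the chaperone HSPA8 was at -0.31, and NOP56 and DKC1 are on this list too. The translation factors EIF4A2 (0.31) and EEF2 (0.15), with TPT1 (0.20) and RPL13A (0.18), were the 4 that rose. Among the microRNA hosts MCM7, the replication helicase subunit that carries the miR-106b cluster, fell from 363 ± 8.81 to 222 ± 2.54 CPM (-0.71, edgeR adjusted p = 4.6e-15). SMC4, host of miR-15b and miR-16-2 and a condensin subunit, was at -0.65, SKA2 at -0.79 and AOPEP at -0.62. The 5 that rose were SREBF2 and SREBF1, the regulators of sterol and fatty acid genes, with EGFL7, LPP and PANK1, at 0.15 to 0.27.

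**Figure D4:**
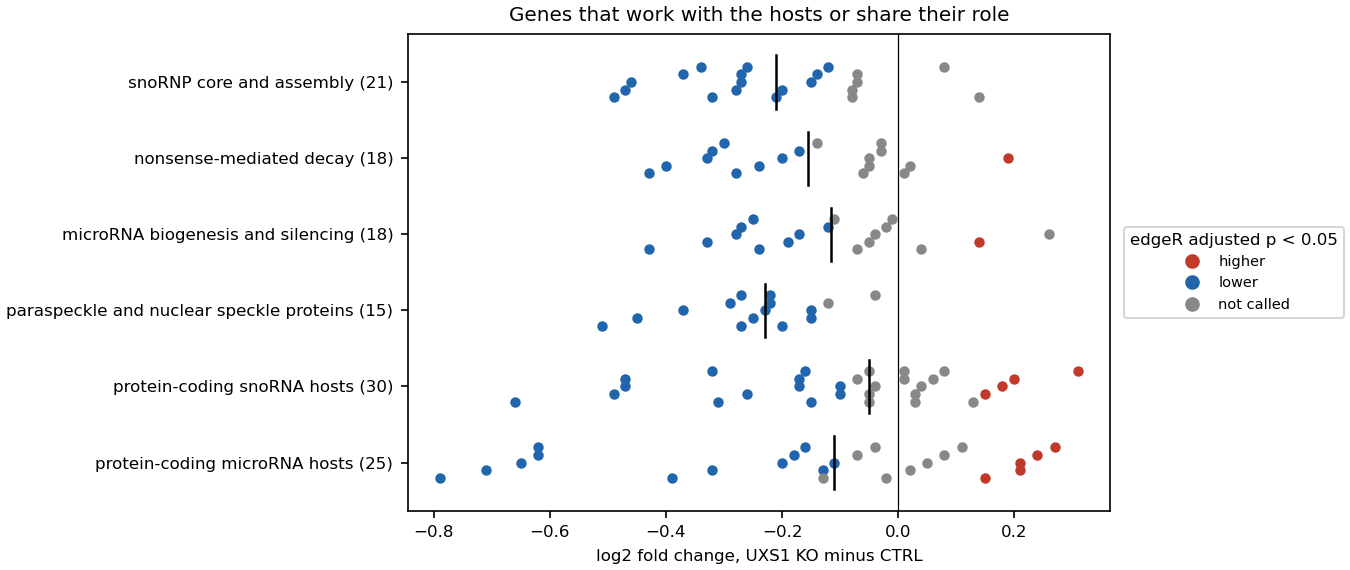
Log2 fold change (UXS1 KO minus CTRL) of each tested gene in 6 lists of genes that process the hosts or share their role, colored by the edgeR call, with the list median as a vertical line and the number tested in parentheses. Paraspeckle and speckle proteins have the lowest median, -0.23, and the protein-coding snoRNA hosts the highest, -0.05.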

How the data were processed

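RNA was sequenced from 6 A549 libraries, 3 per group. The authors deposited whole-number counts per gene, with no normalization, per the file headers, and TPM values per gene. STAR, featureCounts, DESeq2 and hg38 appear, without versions, in the submitters' processing notes. For the annotation release and the strand setting, the sources used here give nothing.

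Counts were filtered with edgeR's filterByExpr (minimum count 10), scaled by TMM and tested with the two-sided quasi-likelihood test of edgeR 4.0.16 under R 4.3.3. Group was the only term, with Benjamini-Hochberg adjustment over 15757 genes. Calls had an adjusted p under 0.05. CPM use the TMM factors, 0.987 to 1.01, and SE is the size of the log2 fold change divided by the root of F. Library totals of 21121489 to 22160405 make 1 CPM about 21.1 to 22.2 counts. Libraries within a group varied beyond sampling noise (ratios of chi-square to degrees of freedom from 1.6 to 3.39), so none was counted as a copy. The fit was tested on simulated data with 200 changed genes. It called 171 genes, of which 12 were false, and recovered 76% of the 1.5-fold and 92% of the 2-fold changes.

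The members and lists were chosen with earlier results of these data known. Named are UXS1, the rule's single genes, all tested members, the 8 snoRNA and 8 microRNA hosts with the smallest adjusted p and the 5 most abundant of each class in every library, up to 4 genes with the smallest adjusted p per list, embedded small RNAs past the filter and divergent partners of members given in every library (starts within 1000 bases). Overlapping genes, other tested divergent partners, genes that rose in the lists, CYTOR, CDKN1A, MDM2 and LNCTAM34A were chosen after their values were seen. Positions and overlaps come from GENCODE 29 (GRCh38), sequences from RefSeq (GRCh38.p14).

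Alternatives were scaling by RLE, by the upper quartile or by library size alone, DESeq2 1.42.0, limma-voom (limma 3.58.1), no filter, a minimum average of 5 CPM, the replicate block, limma on TPM with a pseudocount of 1 or 0.1 (average TPM 1 or more, or unfiltered), and each library left out.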

Additional observations from a re-analysis of the deposited data

How the results depend on the processing

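Of the 24 called members 13 kept the call in each of the 17 alternatives that could test them, 11 lost it in at least 1, and 0 changed direction. Of the 26 members not called, 4 became called in some setting. The snoRNA hosts called higher, 5 in the main result, were 3 with DESeq2 and with either pseudocount on TPM after the filter, 1 with log2(TPM + 1) and no filter, and 3 to 5 as 1 library was left out. Those called lower were 9 to 10 with a library left out. microRNA hosts called lower were 4 of the 6 tested among genes averaging 5 CPM or more, against 7 of 22 in the main result. They were 6 to 7 with a library left out, and none was called higher in a leave-one-out fit (0 to 0). Genes of the 6 lists called higher were 17 with upper-quartile scaling, against 11, and 11 to 15 with a library left out, when 62 to 67 were called lower. Of all genes, 3415 to 3654 were called higher and 3209 to 3515 lower with a library left out. UXS1 ranged from -0.92 to -0.87 in those fits.

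NEAT1, at -0.24, missed the threshold on log2(TPM + 1) (limma adjusted p = 0.0530), log2(TPM + 0.1) (0.0535) and log2(TPM + 1) without a filter (0.118), and ranged from -0.32 to -0.18 with a library left out. MALAT1 missed it with upper-quartile scaling (-0.11, edgeR adjusted p = 0.0552), DESeq2 (-0.14, 0.226), an average of 5 CPM or more (-0.12, 0.0569) and TPM (-0.14, 0.211, 0.211 and 0.348), and without CTRL replicate 1 or UXS1_KO replicate 1, in a range of -0.20 to -0.07 with a library left out. The cause was not tested. Scaling moved the median log2 fold change of all genes by at most 0.02.

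Members that changed sign, all uncalled, did so only as 1 library was left out. MIR22HG ranged from -0.00 to 0.08, MIR4500HG from -0.33 to 0.15, MIR137HG from -0.35 to 0.09, MIR3936HG from -0.17 to 0.10 and MIR34AHG from -0.10 to 0.12. SNHG30 ranged from -0.16 to 0.02, SNHG25 from -0.01 to 0.43, SNHG9 from -0.12 to 0.02, MIR600HG from -0.03 to 0.20 and MIR17HG from -0.15 to 0.29.

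Same-numbered libraries deviated together by a correlation of 0.0055 to 0.034, and differently numbered ones by -0.0272 to 0.0119. With 3 libraries per group these values cannot decide whether the replicate numbers pair the samples. The main fit, without a block, called 3863 genes higher and 3727 lower. With the replicate block 5 snoRNA hosts were called higher and 10 lower, 7 microRNA hosts lower, 4002 genes higher and 3896 lower over all, and 15 list genes higher and 70 lower; NEAT1 was at -0.24, MALAT1 at -0.13 and UXS1 at -0.89. Depth limits the microRNA hosts most, of which 22 of 44 were not tested.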
